A study of Mus musculus with 12 samples.

Results

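The T cell receptor loci Tcra/Tcrd, Tcrb and Tcrg were followed in genomic DNA of 12 mouse tumours. The members were set by position, with earlier results of these data known. They were all array probes that were not controls and that lay in mm9 within chr14:52951143-54853797 (Tcra/Tcrd), chr6:40842421-41550129 (Tcrb) and chr13:19247084-19444057 (Tcrg). This gave 94, 61 and 13 probes, together 168 of the 161460 autosomal probes on each array. The 300 kb on either side of each locus held another 151 probes and served as the local control.

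The tumours were 8 malignant lymphomas and 4 renal cell carcinomas of C57BL/6 mice, with 1 array per tumour. Among the lymphomas, KO1077 and KO1111 came from Mutyh knockout mice given ferric nitrilotriacetate (Fe-NTA), and KO1414 came from an untreated knockout. WT1113, WT1114 and WT1121 came from wild-type mice given Fe-NTA, and WT1405 and WT1420 from untreated wild types. The carcinomas KO1080, KO1097 and KO1134 came from knockouts and WT1179 from a wild type, all given Fe-NTA. Mutyh is a DNA glycosylase that removes adenine paired with oxidised guanine, and Fe-NTA is an iron chelate that causes oxidative damage in the kidney. The treated groups began with 20 male mice each, which received intraperitoneal injections over 12 weeks, 5 in each week. The iron dose per kg was 3 mg at first, for a week, and then 5 mg for 11 weeks, and mice were killed at about 120 weeks. Whether the lymphomas were of T or B cells is not given in the labels, nor is the share of tumour cells in each sample.

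T cells assemble the genes for their antigen receptors by joining V and J segments, with a D segment between them in Tcrb and Tcrd. The DNA between joined segments is usually cut out, so a T cell clone has lost part of these loci from 1 or both chromosomes. Tcra and Tcrb code for the chains of the alpha-beta receptor, and Tcrg and Tcrd for those of the gamma-delta receptor. Tcrd lies inside Tcra, and joining of a Tcra V segment to a J segment removes it. In the RefSeq order (GRCm38) the Tcra V segments come first, followed by the Tcrd segments, the Tcra J segments, the constant segment Trac and then Dad1. In Tcrb, 33 Trbv segments lie between the serine protease gene 2210010C04Rik and the trypsinogen gene Try10. The trypsinogen genes Prss1 and Prss2 come next, and between Prss2 and Ephb6 lie 2 Trbd, 14 Trbj and 2 Trbc segments and 1 inverted Trbv segment.

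The value of a probe was the log2 ratio of tumour to normal kidney DNA, set so that the median of the rest of its chromosome was 0 on each array. A value of 0 therefore means as much DNA as on the rest of that chromosome. In DNA of a whole tumour, loss of 1 copy in many cells and loss of both copies in fewer cells cannot be told apart. The 4 carcinomas shared slide 1, and the lymphomas lay on slides 2 and 3. Slide and tumour type therefore cannot be told apart in any comparison of lymphomas with carcinomas. The exact permutation tests took no account of slide. The genotype labels were checked at a Mutyh probe, chr4:116490496-116490555. There the 6 knockout tumours averaged -2.50 ± 0.21 (SD), against 0.013 ± 0.10 (SD) over the 6 wild types. The Mutyh probe chr4:116480656-116480715 did not separate them, with 0.14 ± 0.089 (SD) in knockouts and 0.12 ± 0.10 (SD) in wild types. Lymphomas WT1113 and WT1114 were the most alike of the 28 pairs of lymphomas in their copy number outside the loci, with a correlation of 0.755 over 2395 bins of 1 Mb. Carcinoma KO1134 stood apart from the other carcinomas. Its segment that holds Tcrg and both flanks averaged -0.23 over 2198 probes, and the one that holds Tcra/Tcrd averaged 0.15 over 3889 probes.

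The probes at which the results turn are printed with their sequences, in lower case because no part of any is singled out. All are given 5′ to 3′ as in the deposited array files. The first pair has the largest absolute t of the comparison of lymphomas with carcinomas in Tcra/Tcrd, the next pair that in Tcrb.
Tcra/Tcrd, chr14:54491664-54491723: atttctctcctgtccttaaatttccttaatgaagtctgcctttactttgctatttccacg
Tcra/Tcrd, chr14:54320774-54320833: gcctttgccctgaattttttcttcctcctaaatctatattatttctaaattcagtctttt
Tcrb, chr6:41338589-41338648: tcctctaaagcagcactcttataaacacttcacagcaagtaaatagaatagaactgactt
Tcrb, chr6:41205049-41205108: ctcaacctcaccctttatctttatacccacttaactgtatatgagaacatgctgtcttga
The next 2 pairs mark the end of the called losses nearest Dad1 and nearest Ephb6.
Tcra/Tcrd, chr14:54779755-54779814: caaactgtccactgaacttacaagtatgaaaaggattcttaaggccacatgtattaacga
Tcra/Tcrd, chr14:54797444-54797503: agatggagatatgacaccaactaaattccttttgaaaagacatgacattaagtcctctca
Tcrb, chr6:41480645-41480704: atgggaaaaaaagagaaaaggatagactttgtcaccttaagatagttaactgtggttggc
Tcrb, chr6:41495139-41495198: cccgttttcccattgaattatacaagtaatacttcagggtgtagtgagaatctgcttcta
The last pair has the largest absolute t in Tcrg.
Tcrg, chr13:19286254-19286313: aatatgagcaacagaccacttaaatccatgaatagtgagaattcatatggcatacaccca
Tcrg, chr13:19423896-19423953: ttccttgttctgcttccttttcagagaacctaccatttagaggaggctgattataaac

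The first question was whether the loci held less DNA in lymphomas than in carcinomas, which are tumours of an epithelium that does not rearrange these genes. Tcra/Tcrd and Tcrb were lower in lymphomas, and their flanks were not. The locus mean of Tcra/Tcrd was -0.32 in KO1077, -0.17 in KO1111, -0.25 in KO1414, -0.064 in WT1113, -0.16 in WT1114, -0.20 in WT1121, -0.070 in WT1405 and -0.28 in WT1420. The carcinomas read -0.049 (KO1080), -0.013 (KO1097), 0.12 (KO1134) and -0.024 (WT1179). All 8 lymphomas lay below the lowest carcinoma, with WT1113 and WT1405 nearest to it. The means were -0.19 ± 0.093 (SD, n = 8) in lymphomas and 0.0092 ± 0.077 (SD, n = 4) in carcinomas, a difference of -0.20 (two-sided exact permutation test over 495 splits, p = 0.00404, adjusted over the 3 loci 0.00606). That p is the smallest the design allows.

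The locus mean of Tcrb was -0.19 in KO1077, -0.23 in KO1111, -0.20 in KO1414, -0.13 in WT1113, -0.18 in WT1114, -0.18 in WT1121, -0.039 in WT1405 and -0.23 in WT1420. The carcinomas lay between -0.011 and 0.015. The groups did not overlap, and WT1405 was the lymphoma nearest to the carcinomas. Lymphomas averaged -0.17 ± 0.063 (SD, n = 8) and carcinomas 0.0033 ± 0.013 (SD, n = 4), a difference of -0.18 (exact permutation test, p = 0.00404, adjusted p = 0.00606). Against the median of all autosomes in place of that of chromosome 6, the difference was -0.16 and its adjusted p 0.285.

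Set against its own flanks on the same array, which removes shifts of the whole chromosome arm, the difference was -0.20 for Tcra/Tcrd and -0.18 for Tcrb, both with an adjusted p of 0.00606 by the exact permutation test. On this scale Tcra/Tcrd lay between -0.32 and -0.082 in lymphomas and between -0.050 and 0.020 in carcinomas. Tcrb lay between -0.24 and -0.070 in lymphomas and between 0.00060 and 0.038 in carcinomas. Both slides with lymphomas showed it: Tcra/Tcrd minus flanks averaged -0.24 over the 4 lymphomas of slide 2 and -0.19 over the 4 of slide 3, and Tcrb minus flanks averaged -0.18 and -0.16 over the same lymphomas. None of the 6 flanks passed the test, with adjusted p between 0.364 and 0.994.

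Tcrg gave a smaller difference that depended on single carcinomas. Its locus mean was -0.038 ± 0.051 (SD, n = 8) in lymphomas and 0.0051 ± 0.11 (SD, n = 4) in carcinomas, and the groups overlapped (difference -0.043, exact permutation test, adjusted p = 0.352). Without carcinoma KO1134 the difference was -0.094 (exact permutation test, adjusted p = 0.0242). The flanks of Tcrg read -0.25 in that carcinoma. With flanks subtracted, lymphomas averaged -0.043 ± 0.063 (SD, n = 8) and carcinomas 0.061 ± 0.057 (SD, n = 4), a difference of -0.10 (exact permutation test, adjusted p = 0.0283), and 6 of 8 lymphomas lay below the lowest carcinoma. Without carcinoma KO1097, or without KO1134, the adjusted p of this difference was 0.0848 by the same test.

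**Figure D1:**
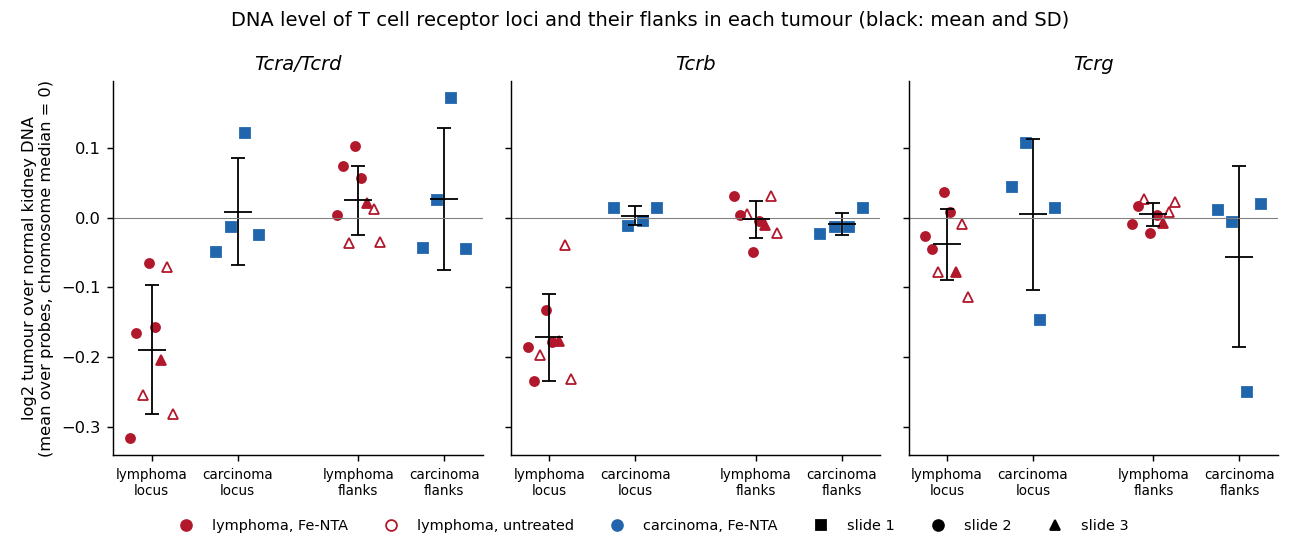
Mean log2 ratio of tumour to normal kidney DNA over the probes of each locus and over its flanks of 300 kb, 1 point per tumour, with the chromosome median at 0 (y axis, log2). Red points are lymphomas (open: untreated) and blue points carcinomas, the shape gives the slide, and the black bars are the mean and SD. In Tcra/Tcrd and Tcrb all 8 lymphomas lie below the lowest carcinoma, while the flanks overlap, and KO1134 is the carcinoma at -0.25 in the Tcrg flanks.

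The lower DNA level did not cover Tcra/Tcrd evenly. It was found in the part nearest Dad1, and the far part next to Sall2 read close to the rest of the chromosome. In windows of 100 kb counted from the first probe of the locus, lymphomas averaged -0.023 ± 0.055 (SD, n = 8) over the first window and carcinomas 0.027 ± 0.12 (SD, n = 4). From 500 to 1200 kb the array held only 4 probes, with a gap of 373 kb, and no level can be given for most of that stretch. In the window from 1200 kb lymphomas averaged -0.24 ± 0.10 and carcinomas 0.062 ± 0.046. The lowest windows began at 1600 kb, with -0.36 ± 0.14 in lymphomas and -0.070 ± 0.055 in carcinomas, and at 1700 kb, with -0.36 ± 0.16 in lymphomas and 0.0052 ± 0.055 in carcinomas. In the window that begins at 1900 kb, at the boundary with Dad1, lymphomas were back at 0.12 ± 0.088 and carcinomas at 0.062 ± 0.075.

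In Tcrb the profile was a trough with sloping sides. Lymphomas averaged -0.030 ± 0.052 in the first 100 kb, against -0.0036 ± 0.019 in carcinomas. The level in lymphomas was -0.14 ± 0.080 from 200 kb, -0.29 ± 0.098 from 300 kb and -0.37 ± 0.13 from 400 kb, against 0.027 ± 0.030, -0.048 ± 0.045 and -0.030 ± 0.025 in carcinomas. From 500 kb it was -0.21 ± 0.058 in lymphomas, against 0.042 ± 0.019 in carcinomas. From 700 kb, beyond the end of the locus, lymphomas read 0.014 ± 0.080 and carcinomas -0.015 ± 0.049. The deepest window thus held Try10, with Prss1 in the next window, and the first window, with 1700074P13Rik and 1810009J06Rik, stayed near 0.

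**Figure D2:**
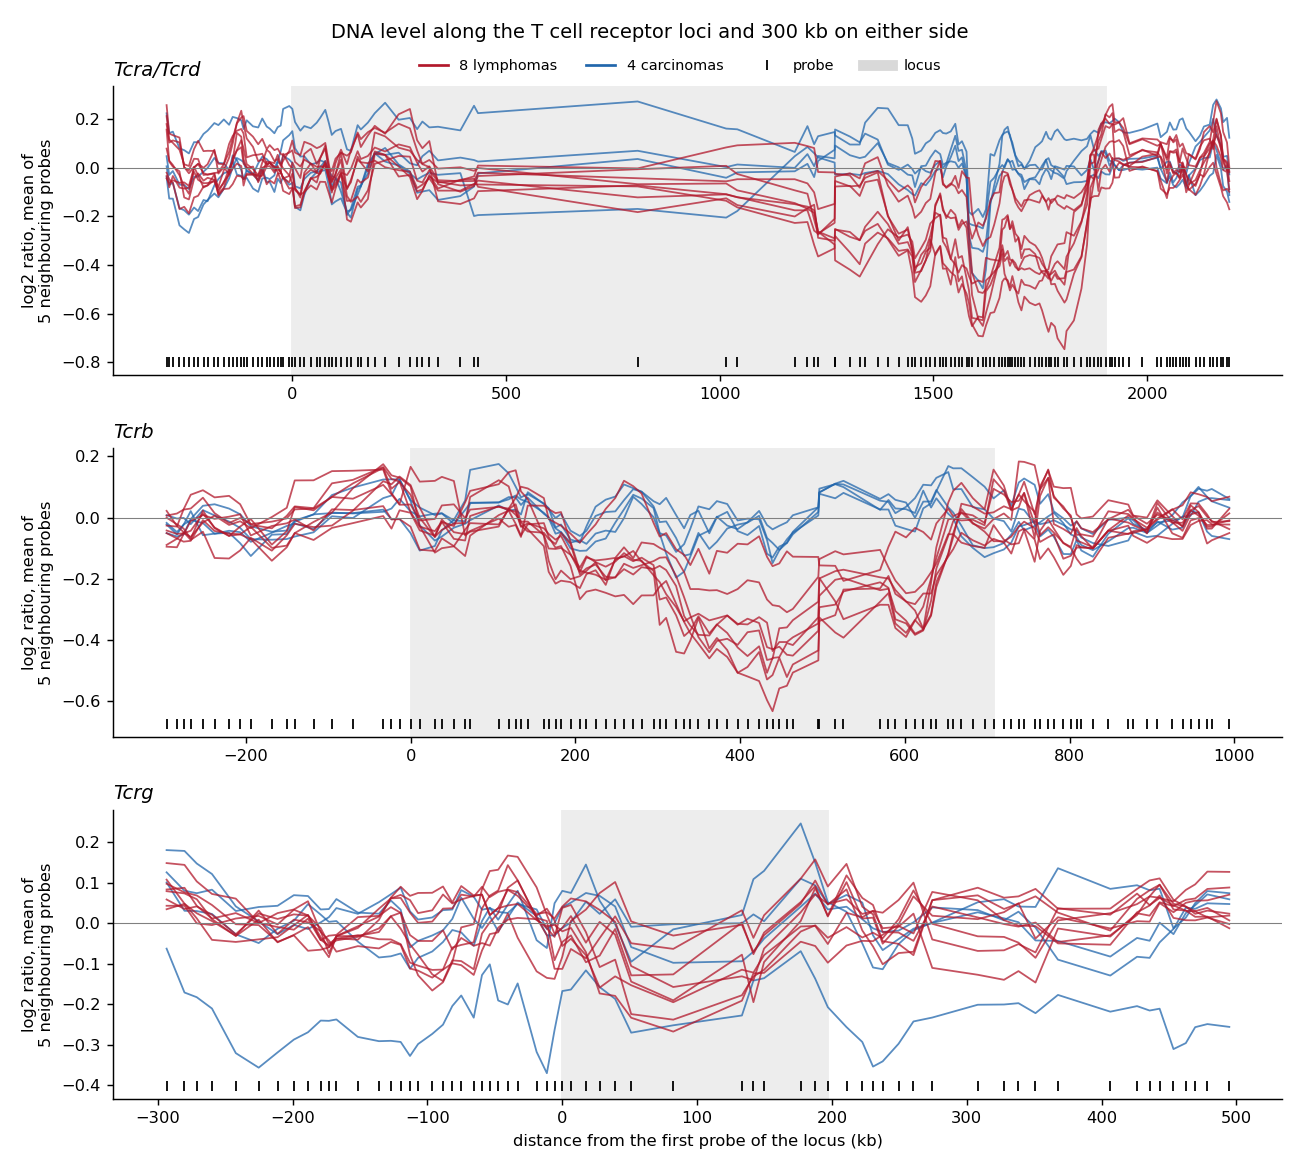
Running mean of 5 neighbouring probes (y axis, log2 ratio of tumour to normal kidney DNA) against the distance in kb from the first probe of each locus, 1 line per tumour, lymphomas in red and carcinomas in blue, with the locus shaded and a tick for each probe. Red lines fall in the part of Tcra/Tcrd farthest to the right and in the middle of Tcrb and come back toward 0 at the right end of the locus, while in Tcrg the lowest line outside the locus is carcinoma KO1134. The dip of the blue lines in Tcra/Tcrd comes where the window takes in 1 probe at which the carcinomas averaged -1.10.

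Probe by probe, a linear model of limma over 161459 autosomal probes called 29 of the 94 Tcra/Tcrd probes and 13 of the 61 Tcrb probes lower in lymphomas at an adjusted p under 0.05, against 1.7% of all autosomal probes. None of the 13 Tcrg probes and none of the 151 flank probes was called lower or higher. The called Tcra/Tcrd probes lay between chr14 positions 53992280 and 54779814 and the called Tcrb probes between chr6 positions 41137397 and 41464795. In 22 Tcra/Tcrd probes, 10 Tcrb probes and 1 Tcrg probe every lymphoma was below every carcinoma, against 2.94% of autosomal probes. With slide as a random block, 0 probes of Tcra/Tcrd and 1 of Tcrb were called, among 226 lower probes in all. The counts depended on single tumours: without KO1080, KO1097 or KO1134 the lower probes numbered 15, 10 and 12 in Tcra/Tcrd and 4 each time in Tcrb. Without WT1121 there were 18 in Tcra/Tcrd, without WT1114 there were 8 in Tcrb, and without WT1405 there were 34 in Tcra/Tcrd and 23 in Tcrb.

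At the Tcra/Tcrd probe chr14:54491664-54491723 the 8 lymphomas read -0.78 (KO1077), -0.54 (KO1111), -0.53 (KO1414), -0.44 (WT1113), -0.62 (WT1114), -0.61 (WT1121), -0.28 (WT1405) and -0.59 (WT1420). The carcinomas read -0.092, -0.029, 0.066 and -0.076. Every lymphoma was below every carcinoma, and the difference was -0.51 with an SE of 0.074 (limma, adjusted p = 0.0023). At chr14:54320774-54320833 the difference was -0.41 with an SE of 0.064 (limma, adjusted p = 0.0040), with lymphomas between -0.61 and -0.26 and carcinomas between -0.16 and 0.040. With slide as a random block the adjusted p of these probes was 0.0933 and 0.131.

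At the Tcrb probe chr6:41338589-41338648 the lymphomas lay between -0.37 and -0.084 and the carcinomas between 0.12 and 0.21 (difference -0.42, SE 0.054, limma adjusted p = 0.00090). It was the Tcrb probe that passed with slide as a random block, with an adjusted p of 0.0426. At chr6:41205049-41205108 the lymphomas lay between -0.42 and -0.22 and the carcinomas between -0.099 and 0.17 (difference -0.40, SE 0.053, limma adjusted p = 0.0014). WT1405, the lymphoma nearest 0 over the locus as a whole, read -0.34 at this probe. The printed probes with the largest absolute t were chosen for that value, which favours a small spread within groups. Their values are therefore a description.

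Among the Tcra/Tcrd probes, 2 were called higher in lymphomas, against 0.805% of autosomal probes, and they are named although chosen after their values were seen. At chr14:54556105-54556164 lymphomas averaged -0.52 ± 0.19 (SD, n = 8) and carcinomas -1.10 ± 0.20 (SD, n = 4), with an adjusted p of 0.0114 by limma. Both tumour types were thus low at that probe, and the carcinomas were lower. At chr14:53088125-53088184 lymphomas averaged 0.21 ± 0.093 (SD, n = 8) and carcinomas -0.14 ± 0.23 (SD, n = 4), with an adjusted p of 0.0423 by limma.

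Called by gene name, the array gives most Tcra/Tcrd probes beyond the gap the transcript name AK131826, which the reference tables do not annotate. Over its 64 probes the 8 lymphomas read -0.44, -0.26, -0.34, -0.098, -0.25, -0.31, -0.081 and -0.39 in the order KO1077, KO1111, KO1414, WT1113, WT1114, WT1121, WT1405 and WT1420, and the carcinomas lay between -0.054 and 0.10. The difference was -0.28 with an SE of 0.065 (limma over 20296 genes, adjusted p = 0.0424), where 1.47% of all genes were called lower and 0.936% higher. Leaving out 1 tumour at a time gave an adjusted p between 0.024 and 0.14, and slide as a random block gave 0.40. The other named intervals with the lowest means were AK038798, at -0.12 ± 0.045 in lymphomas and -0.016 ± 0.088 in carcinomas, and the olfactory receptor gene Olfr1507, at -0.034 ± 0.11 in lymphomas and -0.014 ± 0.14 in carcinomas. Neither passed (limma, adjusted p = 0.184 and 0.887). On the flanks, the zinc finger gene Sall2 read -0.028 ± 0.084 in lymphomas and 0.10 ± 0.15 in carcinomas, and Dad1, a subunit of the oligosaccharyltransferase, read 0.17 ± 0.088 in lymphomas and 0.14 ± 0.10 in carcinomas (limma, adjusted p = 0.278 and 0.828).

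In Tcrb the 3 named genes with the lowest means were the trypsinogens Try10, Prss1 and Prss2, digestive enzyme genes of the pancreas that lie inside the locus, each read by 1 probe. Prss1 read -0.44 in KO1077, -0.54 in KO1111, -0.28 in KO1414, -0.19 in WT1113, -0.40 in WT1114, -0.20 in WT1121, -0.16 in WT1405 and -0.22 in WT1420, against -0.0097, 0.085, 0.20 and -0.043 in the carcinomas. All lymphomas were below all carcinomas, and the difference was -0.36 with an SE of 0.075 (limma, adjusted p = 0.0271). It lost the call without carcinoma KO1080, KO1097 or KO1134 (adjusted p of 0.0554, 0.0881 and 0.0979) and with slide as a random block (adjusted p = 0.239). Try10 averaged -0.30 ± 0.17 in lymphomas and -0.013 ± 0.092 in carcinomas (limma, adjusted p = 0.0867), and Prss2 -0.24 ± 0.14 in lymphomas and 0.081 ± 0.14 in carcinomas (limma, adjusted p = 0.0531). The name AK138971, carried by 48 Tcrb probes and chosen here for that reason, averaged -0.19 ± 0.074 in lymphomas and 0.0032 ± 0.0095 in carcinomas (difference -0.20, limma adjusted p = 0.0225, and 0.279 with slide as a random block). Leaving out 1 tumour at a time gave it an adjusted p between 0.0042 and 0.074, above 0.05 without KO1080, KO1097 or KO1134. The neighbouring genes Moxd2 and Ephb6 did not pass, with differences of 0.044 and -0.097 (limma, adjusted p = 0.691 and 0.355).

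Losses were then called in each tumour on its own, as segments with a mean of -0.25 or lower over at least 5 probes. A loss in Tcra/Tcrd was called in 6 of 8 lymphomas and in 0 of 4 carcinomas, where 0.388% of autosomal probes lay in a called loss in at least 1 lymphoma. Fisher's exact test gave p = 0.0606, adjusted over the 3 loci 0.182. In KO1077 it ran over chr14:54220039-54779814 (560 kb) with a mean of -0.51, and in WT1420 over chr14:54220039-54797503 (577 kb) with -0.44. In KO1414 it ran over chr14:54220039-54810474 with -0.39, in WT1121 over chr14:54172075-54797503 with -0.37, in KO1111 over chr14:54156327-54797503 with -0.31 and in WT1114 over chr14:54291227-54779814 with -0.31. No loss was called in WT1113 or WT1405. The ends nearest Dad1 fell at 3 neighbouring probes, 30.7 kb apart at most, and the other ends were spread over 134.9 kb just past the sparse part of the locus. That spread depended on the setting. When the carcinoma mean of each probe was subtracted first, the losses began at 54156327, except in WT1420, where the loss began at 54172075. Under this setting they ended at 54797503, except in KO1414, where the loss ended at 54810474.

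All 6 called losses shared chr14:54291227-54779814, a stretch of 489 kb with 48 probes. In all, 53 probes lay in a called loss in at least 4 lymphomas, against 0.162% of autosomal probes. Since the stretch was chosen from these lymphomas, its values are a description. It averaged -0.53 in KO1077, -0.34 in KO1111, -0.39 in KO1414, -0.31 in WT1114, -0.38 in WT1121 and -0.45 in WT1420. As a ratio, these 6 lymphomas read between 69.1% and 80.8% of the median of the rest of chromosome 14 there. In the lymphomas without a call the stretch averaged -0.13 in WT1113 and -0.11 in WT1405. In carcinomas it lay between -0.057 and 0.086. WT1113 and WT1405 thus lay between the other lymphomas and the carcinomas, with 40 and 38 of the 48 probes below 0, against 8 to 30 in the carcinomas. The 39 probes of the locus before this stretch averaged -0.050 ± 0.049 (SD, n = 8) in lymphomas and 0.022 ± 0.10 (SD, n = 4) in carcinomas, and the 7 after it -0.0019 ± 0.084 in lymphomas and 0.045 ± 0.087 in carcinomas.

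The probes at the edge nearest Dad1 were chosen because called losses ended there, so their values are a description. At chr14:54779755-54779814 the lymphomas read between -0.997 (KO1077) and -0.29 (WT1405) and the carcinomas between -0.096 and 0.021. At the next probe, chr14:54797444-54797503, lymphomas lay between -0.36 and 0.060 and carcinomas between -0.17 and 0.27. At chr14:54810415-54810474, 1 probe further, the groups overlapped, with lymphomas between -0.29 and 0.68 and carcinomas between -0.16 and 0.17.

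A loss in Tcrb was called in 3 of 8 lymphomas and 0 of 4 carcinomas (Fisher's exact test, p = 0.491, adjusted p = 0.736). It covered chr6:41004202-41480704 with a mean of -0.29 in KO1414, chr6:41055913-41495198 with -0.26 in WT1121 and chr6:41144824-41480704 with -0.40 in WT1420. Each of these lymphomas also had a called Tcra/Tcrd loss. Of all autosomal probes, 0.388% lay in a called loss in at least 1 lymphoma, again a share of single probes and not of loci. The stretch that the 3 shared held 29 probes over 336 kb, from the Trbv array to past Prss2. Across it the other lymphomas averaged -0.33 (KO1077), -0.40 (KO1111), -0.20 (WT1113), -0.31 (WT1114) and -0.11 (WT1405), and the carcinomas lay between -0.013 and -0.0025. KO1111 was thus as low as WT1420 without a call. The number of lymphomas called depended on the settings: it was 5 when the carcinoma mean of each probe was subtracted first, 6 with a penalty multiplier of 5 in place of 10 and 0 with a multiplier of 20. The Tcra/Tcrd count was 6, 6 and 4 under the same settings.

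At the boundary nearest Ephb6, chr6:41480645-41480704 read -0.44 in KO1414 and -0.49 in WT1420. It read -0.17 in WT1121, -0.13 in KO1077 and between 0.027 and 0.19 in the other 4 lymphomas, and the carcinomas lay between 0.092 and 0.28. At chr6:41495139-41495198 lymphomas lay between -0.15 and 0.32 and carcinomas between -0.091 and 0.099.

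No loss was called in Tcrg in any tumour at the threshold of -0.25, and Tcrg has 13 probes. In simulated data on chromosome 14, losses of 10 probes at -0.4 were called in 0% of 100 runs. The lowest named intervals of Tcrg were X04699, at -0.24 ± 0.18 in lymphomas and -0.18 ± 0.16 in carcinomas, and BC054086, at -0.12 ± 0.051 in lymphomas and -0.00098 ± 0.11 in carcinomas (limma, adjusted p = 0.752 and 0.187). AK040028, the next in order, read 0.11 ± 0.069 in lymphomas and 0.077 ± 0.075 in carcinomas. At chr13:19286254-19286313 the lymphomas read -0.52 (KO1077), -0.40 (KO1111), -0.30 (KO1414), -0.098 (WT1113), -0.29 (WT1114), -0.32 (WT1121), -0.14 (WT1405) and -0.35 (WT1420). The carcinomas read 0.099 (KO1080), 0.084 (KO1097), -0.24 (KO1134) and 0.047 (WT1179). All lymphomas were below 0 and KO1134 lay among them (difference -0.30, SE 0.080, limma adjusted p = 0.0648). At chr13:19423896-19423953 lymphomas lay between -0.49 and -0.17 and carcinomas between -0.16 and 0.029 (difference -0.24, SE 0.064, limma adjusted p = 0.0701). The flanking genes Amph and Stard3nl read -0.0049 ± 0.037 and -0.028 ± 0.042 in lymphomas, against -0.056 ± 0.13 and -0.13 ± 0.16 in carcinomas.

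**Figure D3:**
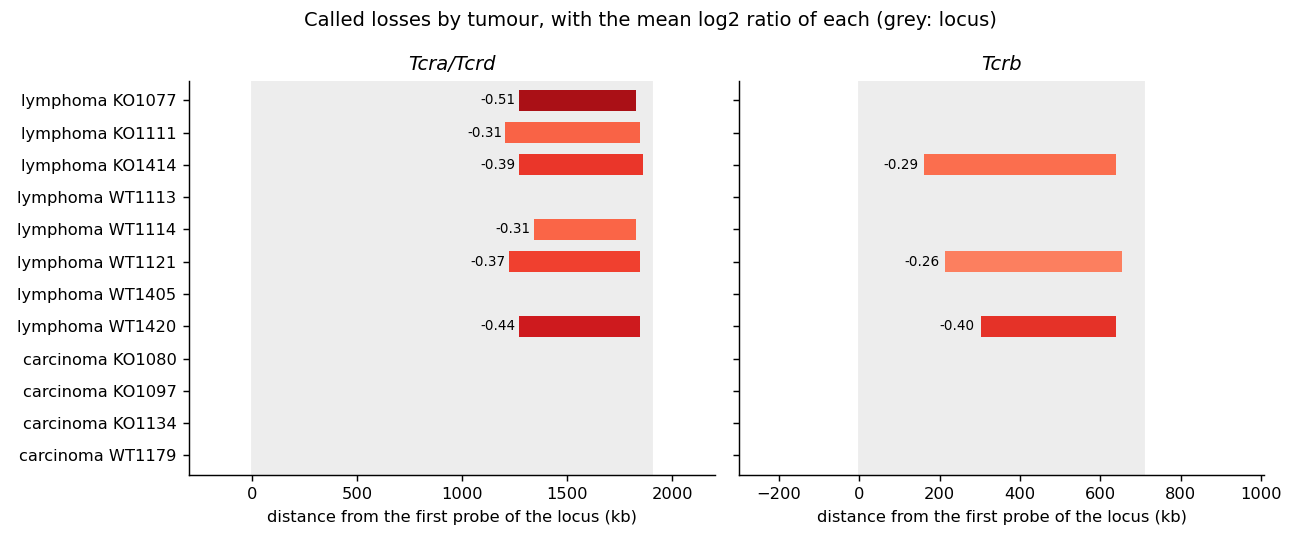
Called losses in Tcra/Tcrd and Tcrb, 1 row per tumour, with lymphomas above carcinomas, against the distance in kb from the first probe of the locus (x axis). Grey marks the locus, and the colour and the number beside each bar give the mean log2 ratio of the loss. The 6 losses in Tcra/Tcrd end at nearly the same place on the right, 3 lymphomas have a loss in Tcrb, and no carcinoma has one.

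Within the lymphomas, neither genotype nor treatment gave a difference that passed the test. Tcra/Tcrd averaged -0.25 ± 0.076 (SD, n = 3) in knockouts and -0.16 ± 0.092 (SD, n = 5) in wild types (difference -0.090, exact permutation test over 56 splits, adjusted p = 0.375). Tcrb averaged -0.21 ± 0.025 (SD, n = 3) in knockouts and -0.15 ± 0.072 (SD, n = 5) in wild types (difference -0.054, exact permutation test, adjusted p = 0.375). The knockout minus wild-type difference had the same sign within each slide, with -0.13 and -0.069 for Tcra/Tcrd and -0.055 and -0.048 for Tcrb on slides 2 and 3. Slide 2 set KO1077 and KO1111 against WT1113 and WT1114. Slide 3 set KO1414 alone against WT1121, WT1405 and WT1420, and the differences within slides were not tested. Tcrg averaged -0.050 ± 0.027 (SD, n = 3) in knockouts and -0.031 ± 0.063 (SD, n = 5) in wild types (exact permutation test, adjusted p = 0.643). Between Fe-NTA and untreated lymphomas the differences were 0.021, -0.026 and 0.046 in Tcra/Tcrd, Tcrb and Tcrg (exact permutation test, n = 5 and 3, adjusted p = 0.786, 0.786 and 0.75). The 2 lymphomas with no called Tcra/Tcrd loss were both wild types, 1 of them treated.

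The loci were then compared over the 8 lymphomas. Lymphomas with a lower Tcra/Tcrd also had a lower Tcrb, each minus its flanks: Pearson's r was 0.85 and Spearman's rho 0.86 (exact permutation p = 0.00818 and 0.0107). Over the 7 relations computed, the adjusted p was 0.0573 and 0.075, so neither passed. Without WT1405 and KO1077, which lay farthest from the median of Tcra/Tcrd, r was 0.92. Tcrg gave r = 0.32 with Tcra/Tcrd and 0.61 with Tcrb (exact permutation, adjusted p = 0.533 and 0.266). The r of Tcrg with Tcra/Tcrd was 0.86 without WT1405 and KO1077, and that with Tcrb was 0.20 without WT1405 and WT1113, the lymphomas farthest from the median of Tcrb.

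Immunoglobulin loci were set beside them, as the intervals between their nearest array-named neighbours: 182 probes between Mta1 and Zfp386 on chromosome 12 for Igh, and 142 probes between Il23r and Rpia on chromosome 6 for Igk. These hold the genes that B cells rearrange. The Igh interval read between -0.47 (KO1414) and -0.036 (WT1405) in lymphomas and between 0.022 and 0.25 in carcinomas. The Igk interval read between -0.34 (KO1077) and -0.066 (KO1111) in lymphomas and between -0.067 and 0.0027 in carcinomas. All 8 lymphomas lay below all carcinomas in Igh too, whereas in Igk the groups met, with KO1111 level with the lowest carcinoma. The lowest mean of 20 neighbouring probes was -1.22 in the Igh interval (WT1121), -0.55 in that of Igk (WT1113), -0.60 in Tcra/Tcrd (KO1077) and -0.47 in Tcrb (KO1111). Igh and Igk correlated with Tcra/Tcrd at r = 0.47 and 0.42 and with Tcrb at 0.62 and -0.044 (exact permutation, adjusted p between 0.266 and 0.912). All but the first moved widely when 2 lymphomas were left out: without WT1405 and KO1077, r with Tcra/Tcrd was 0.36 for Igh and -0.75 for Igk, and without WT1405 and WT1113, r with Tcrb was 0.075 for Igh and -0.54 for Igk.

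**Figure D4:**
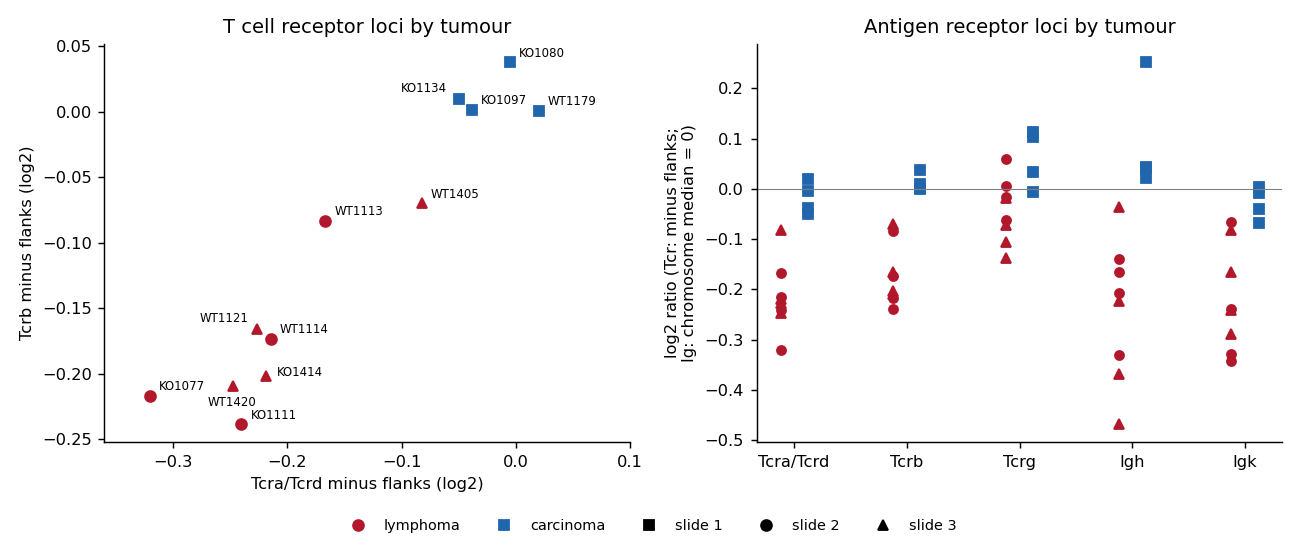
Left, Tcrb against Tcra/Tcrd in each tumour, both as locus minus flanks (log2). Right, the level of the 3 T cell receptor loci minus their flanks and of the Igh and Igk intervals relative to their chromosome (y axis, log2), with 1 point per tumour, lymphomas in red and carcinomas in blue and the slide given by the shape. WT1405 is the lymphoma nearest the carcinomas in Tcra/Tcrd, Tcrb and Igh, and the lymphomas are spread more widely in Igh, between -0.47 and -0.036, than in Tcrb.

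Genes of T cell receptor signalling and of V(D)J joining were read as a list of 40, of which 37 were on the array. By limma at an adjusted p under 0.05, 0 of the 37 were lower in lymphomas, against 1.47% of all genes, and 1 was higher, against 0.936%. At an unadjusted p under 0.05 there were 5 of the 37, against 3818 of all 20296 genes, so the list held no larger share than the array as a whole. The median difference over the list was 0.020, against 0.0098 over all genes. The gene that passed was Prkdc, which codes for the catalytic subunit of the DNA-dependent protein kinase of end joining. It read 0.096 ± 0.050 (SD, n = 8) in lymphomas and -0.039 ± 0.039 (SD, n = 4) in carcinomas (difference 0.14, SE 0.032, limma adjusted p = 0.0477). Leaving out 1 tumour at a time gave an adjusted p between 0.024 and 0.16, and with slide as a random block it was 0.389.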

How the data were processed

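Genomic DNA of each tumour (Cy5) was hybridised against normal kidney DNA (Cy3) on Agilent arrays. The intensity values deposited are, per the file headers, processed signals from Feature Extraction 10.7.1.1 (10.7 in the submitters' processing notes), background-subtracted, detrended and dye-normalized by the linear method, with mm9 positions. The deposited series table holds log2 red over green, uncentred (column medians -0.020 to 0.025), and served as an alternative. On each array 99.856% to 99.938% of spots passed the scanner's background test.

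From these the log2 ratio per probe was computed, without outlier spots and minus the median of the rest of the chromosome. Group differences used two-sided exact permutation tests (scipy) and limma 3.58.1 in R 4.3.3 with Benjamini-Hochberg adjustment. Losses were segments by penalised least squares (multiplier 10, mean -0.25 or lower, at least 5 probes). On simulated data over 161460 probes, limma recovered 69% of differences of 0.4 and 0% of 0.2. Over 20296 genes it recovered 88.5% and 34.5%. Inserted losses of 30 probes at -0.4 were called in 99% of runs and of 20 probes at -0.3 in 0%.

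Probes and names with values followed a rule: per locus the 3 names with the lowest lymphoma mean, the nearest named gene in each flank, the 2 probes with the largest absolute t and the ends of called losses. The members and lists were chosen with earlier results of these data known. The Igh and Igk intervals were set after the array names were seen, since no array name begins with Igh or Igk followed by a segment name. Nothing says that tumours share litters or batches by number, and the numbers 1 to 4 shared between types belong to different animals. The main tests therefore used no pairing, and the tumour number served as a block only in an alternative. RefSeq tables of GRCm38 gave names and order only.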

Additional observations from a re-analysis of the deposited data

Results flagged for a closer look

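In 3 of the 34 groups of values tested, 1 sample lay farther from the others than Dixon's 95% limit allows, and chance gives about 1 in 20. The groups share probes, since each flank is also part of the mean of the flanks, so this count cannot be set against that share. All 3 were carcinoma KO1134. It read -0.25 in the mean of the Tcrg flanks and -0.26 in the right Tcrg flank, where the nearest carcinomas read -0.0052 and -0.014, and 0.25 in the Igh interval, where the nearest read 0.044. These values lie in the control group of each comparison, and the Tcrg results are given without this carcinoma above.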

How the results depend on the processing

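Lymphoma minus carcinoma differences of Tcra/Tcrd and Tcrb, as locus means and minus flanks, kept their sign under every alternative run. Centred on the array median, the Tcrb locus mean gave -0.162 (exact permutation adjusted p = 0.285), the Tcrg locus mean 0.0787 and BC054086 0.00116. With the tumour number as replicate block, over the 4 numbers both types share, the exact test cannot go below p = 0.125: Tcra/Tcrd gave -0.21, Tcrb -0.191, and minus flanks -0.218, -0.198 and -0.0919 for Tcra/Tcrd, Tcrb and Tcrg (adjusted p 0.188, 0.188 and 0.375 in the last 3). Signs of small differences turned: normexp gave 0.0117 (Tcra/Tcrd right flank), -0.00806 (Tcrb left) and -0.00629 (Tcrb right), the median over probes -0.0108 (Tcra/Tcrd left) and -0.0253 (Tcrb right), and Fe-NTA minus untreated was -0.0507 for Tcra/Tcrd minus flanks and -0.0114 for Tcrg within slide 3.

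By limma, counts of lower and higher probes were 6920 and 6144 with genotype and treatment as terms, 226 and 116 with slide as a random block, 157 and 110 with the replicate block, and 15956 higher centred on the array median. For genes they were 632 and 598, 35 and 30, 7 and 9, and 2074 higher. Lower Tcra/Tcrd probes numbered 0 under both blocks. Lower Tcrb probes numbered 22 with the terms, 1 with slide, 0 with the replicate block and 5 by array median. Lower Tcrg probes numbered 2 with the terms and 1 under normexp, and lower flank probes 7 with the terms. Called Tcra/Tcrd losses numbered 2 and Tcrb losses 0 at a threshold of -0.4. The cause of these changes was not tested.

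Leaving out 1 tumour at a time gave locus mean differences of -0.218 to -0.161 (Tcra/Tcrd), -0.194 to -0.166 (Tcrb), -0.0936 to -0.0087 (Tcrg), and minus flanks -0.215 to -0.181, -0.197 to -0.173, -0.127 to -0.0866. The flanks gave -0.0269 to 0.0554 (Tcra/Tcrd left), -0.0356 to 0.0355 (Tcra/Tcrd right), 0.00874 to 0.0262 (Tcrb left), -0.0057 to 0.00728 (Tcrb right), -0.0161 to 0.0805 (Tcrg left), 0.0144 to 0.106 (Tcrg right). Knockout minus wild type gave -0.13 to -0.055, -0.0745 to -0.0263, -0.0393 to -0.0015, and Fe-NTA minus untreated -0.0191 to 0.0867, -0.0635 to 0.0328, 0.0229 to 0.0758 for Tcra/Tcrd, Tcrb and Tcrg. By limma, lower probes numbered 1192 to 3841 and higher 395 to 1919, lower genes 123 to 415 and higher 73 to 265, and lower probes 10 to 34 in Tcra/Tcrd, 4 to 23 in Tcrb, 0 to 1 in Tcrg and 0 to 1 in the flanks. Called losses numbered 5 to 6 in Tcra/Tcrd, where the adjusted Fisher p was 0.0455 without WT1113 or without WT1405, and 2 to 3 in Tcrb. Without carcinoma KO1134 the Tcrg locus mean passed the exact permutation test (adjusted p = 0.0242), and its value minus flanks did not without KO1097 or KO1134.

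In simulated data with these numbers of arrays, 200 of 161460 probes were changed by 0.2, and 0% of them were recovered. The limma fit to the tumours called 2743 probes lower and 1299 higher, many more than were changed in the simulation. The smallest difference detectable at a single probe in the tumours was therefore not tested. Slide and tumour type cannot be told apart at a probe or over a locus, and simulated losses of 10 probes at -0.4 were called in 0% of runs.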
